A study of Mus musculus with 69 samples.

Results

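*Igf2*, *Dlk1* and *Peg10* are imprinted genes of which only the paternal copy is expressed in most tissues. They were followed in mouse embryonic stem (ES) cells whose level of the pluripotency factor Oct3/4 was raised or removed. All array rows that the platform annotation or the tables of the study name for these genes were taken. This gave 4 of 22575 oligos on the time course arrays and 3 of 21446 on the reference arrays. *Igf2* and *Peg10* each had 1 oligo and *Dlk1* had 2 on the time course arrays, and *Igf2* had 2 and *Dlk1* 1 on the reference arrays, where no row was named *Peg10*.

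On the time course arrays the RNA of each time point was hybridised together with RNA of its line at 0 h. ZHTc6 cells lack 1 *Pou5f1* (*Oct3/4*) allele and carry an *Oct3/4* transgene that is silent with tetracycline (Tet) and comes on when Tet is withdrawn. ZHBTc4 cells were made from them by disrupting the remaining allele, so that Oct3/4 comes only from the transgene, which Tet shuts off. Both derive from CGR8 ES cells and were grown without feeder cells in medium with LIF, and 3 samples of each line were taken at 24, 48, 72, 96 and 120 h. At 120 h the labels of ZHTc6 cells repeat a sample number, so the 3 values there may not all be separate samples. Each condition was run in a single line, so line and treatment cannot be told apart. No culture kept at its 0 h Tet setting was analysed here, so a response to Tet and a change with days in culture cannot be told apart. On the reference arrays, 3 samples of each line at 0 h, and 1 sample each of EB5 ES cells with a control siRNA (siGFP) or with siRNA against *Tcl1*, labelled 560uM and 1120uM, were set against a universal mouse reference RNA.

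*Igf2* encodes a secreted growth factor that drives growth of the fetus and placenta, mainly through the Igf1 receptor. *Dlk1* encodes a transmembrane protein with EGF-like repeats that is related to Notch ligands and is known for holding back adipocyte differentiation. *Peg10* is a domesticated retrotransposon gene without which the mouse placenta does not form properly. The genes lie in 3 different imprinted clusters. In RefSeq (GRCm38.p6) *Igf2* lies at chr7:142650768-142666816, *Dlk1* at chr12:109452485-109463336 and *Peg10* at chr6:4747306-4760517. *Igf2* shares its cluster with *H19*, 72621 bases away, and *Ins2*, 11839 bases away. *Dlk1* lies 77659 bases from *Meg3*, and only 101 bases separate *Peg10* from *Sgce*.

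The promoter windows of the members are shown because *Igf2* had the largest response of the 3 genes and starts from several promoters. RefSeq gives 4 windows of 300 bases for *Igf2* and 1 for *Dlk1*, and none for *Peg10* was in the table used. The windows were searched on both strands for the octamer ATGCAAAT to which Oct3/4 binds, for the GC box GGGCGG and for TATAAA. The octamer and TATAAA were in none of the 5 windows, and 1.74% and 13.6% of all 32851 promoter windows held them. Only this exact octamer was searched. The study states that Oct3/4 can also bind similar motifs, and that regulatory elements can lie far from the start site. Binding of Oct3/4 at these genes was thus not tested. The GC box was in 2 *Igf2* windows, and in 35.7% of all windows. They are printed 5′ to 3′ on the minus strand with the GC box, or its complement, in capitals, and the *Dlk1* window, on the plus strand, holds none of the motifs.
*Igf2* chr7:142658755-142659054: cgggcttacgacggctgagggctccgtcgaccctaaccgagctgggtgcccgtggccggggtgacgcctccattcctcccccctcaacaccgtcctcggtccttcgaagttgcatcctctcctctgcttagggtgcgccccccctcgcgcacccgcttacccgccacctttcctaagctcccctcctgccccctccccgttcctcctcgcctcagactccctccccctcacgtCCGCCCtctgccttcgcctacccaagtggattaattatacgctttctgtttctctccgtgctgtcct
*Igf2* chr7:142657447-142657746: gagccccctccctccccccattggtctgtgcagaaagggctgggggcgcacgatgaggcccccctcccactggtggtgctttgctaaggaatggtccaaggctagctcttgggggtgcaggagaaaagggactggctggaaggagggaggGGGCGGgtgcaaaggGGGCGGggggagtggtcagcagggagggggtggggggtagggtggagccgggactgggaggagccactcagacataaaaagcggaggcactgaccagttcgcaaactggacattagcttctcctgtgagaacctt
*Dlk1* chr12:109452573-109452872: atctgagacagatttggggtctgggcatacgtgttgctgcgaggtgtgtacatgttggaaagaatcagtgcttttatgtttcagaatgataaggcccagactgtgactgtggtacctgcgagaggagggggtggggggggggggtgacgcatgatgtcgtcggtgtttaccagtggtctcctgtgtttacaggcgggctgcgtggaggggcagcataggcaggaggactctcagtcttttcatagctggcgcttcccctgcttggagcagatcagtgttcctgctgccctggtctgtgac
The windows that hold a GC box had a GC content of 64.7% and 63.3%, and the *Dlk1* window one of 55.7%.

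The oligos are not equally sure in their names. The annotation pairs the *Igf2* oligo of the time course with *Igf2* and with *Ctsd*, a lysosomal protease gene 262940 bases away, and the tables of the study name it *Igf2*. It pairs the first *Dlk1* oligo with *Dlk1* and *Eml1*, and it gives no gene for the second *Dlk1* oligo and for the *Peg10* oligo, so these names rest on the tables of the study, which favour genes that changed. Array checks were as follows. For *Pou5f1*, which encodes Oct3/4, the mean log2 ratio ran from -2.12 to -2.75 over the time points of ZHBTc4 cells and from 0.12 to 0.93 over those of ZHTc6 cells. The ZHTc6 samples lay on both sides of 0 at each time point from 24 to 96 h, between -0.27 and 1.56. Only at 120 h were all of them above 0, at 0.63 to 0.79. Over all oligos the arrays of a dye-swapped pair, on which the dyes of the time point and 0 h were exchanged, correlated with a median r of 0.56 in ZHBTc4 cells, with 0.05 as the lowest, and of 0.53 in ZHTc6 cells, with 0.20 as the lowest.

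*Igf2* rose early and strongly when Oct3/4 was removed, and late and less after the *Oct3/4* transgene was turned on. All values below are log2 ratios to 0 h, each averaged over a dye-swapped pair, and adjusted p-values are limma's over all 22148 oligos. In ZHBTc4 cells the 3 samples stood at 3.10, 2.61 and 3.13 at 24 h. They stood at 4.01, 4.18 and 4.25 at 48 h, and at 4.29, 4.43 and 4.65 at 72 h. They reached 4.59, 4.69 and 4.63 at 96 h and 4.66, 4.66 and 4.70 at 120 h. All samples were thus high at every time point, and the lowest of them was at 24 h. The mean rise was 7.73-fold at 24 h (2.95 ± 0.29 SD, n = 3, adjusted p = 1.17e-05), 17.8-fold at 48 h (4.15 ± 0.13, adjusted p = 1.31e-05) and 25.5-fold at 120 h (4.67 ± 0.03, adjusted p = 3.85e-07). Counted from the highest ratio down, *Igf2* was in place 2 of 22148 oligos at 24 h and at 48 h, and in place 9 at 120 h.

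The steps of *Igf2* became smaller after 48 h. The step from 24 to 48 h was 1.20 (SE 0.18, adjusted p = 8.65e-05). The step from 48 to 72 h was 0.30 (95% interval -0.07 to 0.68, adjusted p = 0.49), that from 72 to 96 h was 0.18 (-0.19 to 0.55, adjusted p = 0.82), and that from 96 to 120 h was 0.04 (-0.34 to 0.41, adjusted p = 1). These 3 later steps did not pass the test. Each of the 3 samples was higher at 72 h than at 48 h, and higher at 120 h than at 48 h. This direction depended on scaling. With all arrays scaled alike, the mean in ZHBTc4 cells was 4.73 at 48 h and 3.99 at 120 h. The steps from 48 to 72 h and from 72 to 96 h were then -0.33 and -0.54 (adjusted p = 0.86 and 0.91), and that from 96 to 120 h was 0.13. With the shared 0 h number as a block, the step from 48 to 72 h had an adjusted p of 0.30. Of all oligos, 6.6%, 5.13%, 2.74% and 0.56% were called in these 4 steps.

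In ZHTc6 cells *Igf2* moved later. The samples stood at 0.03, -0.48 and -0.30 at 24 h, and at 0.25, -0.29 and -0.68 at 48 h, so that they lay on both sides of 0. They stood at 0.51, 0.01 and 0.29 at 72 h, at 0.85, 0.83 and 0.76 at 96 h, and at 2.17, 1.88 and 2.08 at 120 h. Neither 24 h (-0.25 ± 0.26, adjusted p = 0.19) nor 48 h (-0.24 ± 0.47, adjusted p = 0.24) nor 72 h (0.27 ± 0.25, adjusted p = 0.15) passed the test. *Igf2* was 1.76-fold higher at 96 h (0.82 ± 0.05, adjusted p = 0.000202) and 4.12-fold higher at 120 h (2.04 ± 0.15, adjusted p = 2.15e-05), when it was in place 79 of 22148 oligos from the highest down. The step from 96 to 120 h, 1.23 (SE 0.18, adjusted p = 0.000189), was the largest of its steps in these cells. The step from 48 to 72 h was 0.51 (SE 0.18, adjusted p = 0.0259, or 0.23 with all arrays scaled alike) and that from 72 to 96 h 0.54 (SE 0.18, adjusted p = 0.0538). Of all oligos, 10.7%, 41.7%, 10.6% and 4.37% were called in the 4 steps of these cells. At 24 h the call depended on the dye, since with the time point in Cy5 only the value was -0.55 (adjusted p = 0.029). At 48 h it depended on 1 sample, and without ZHTc6 replicate 1 it was -0.49 (adjusted p = 0.023).

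**Figure D1:**
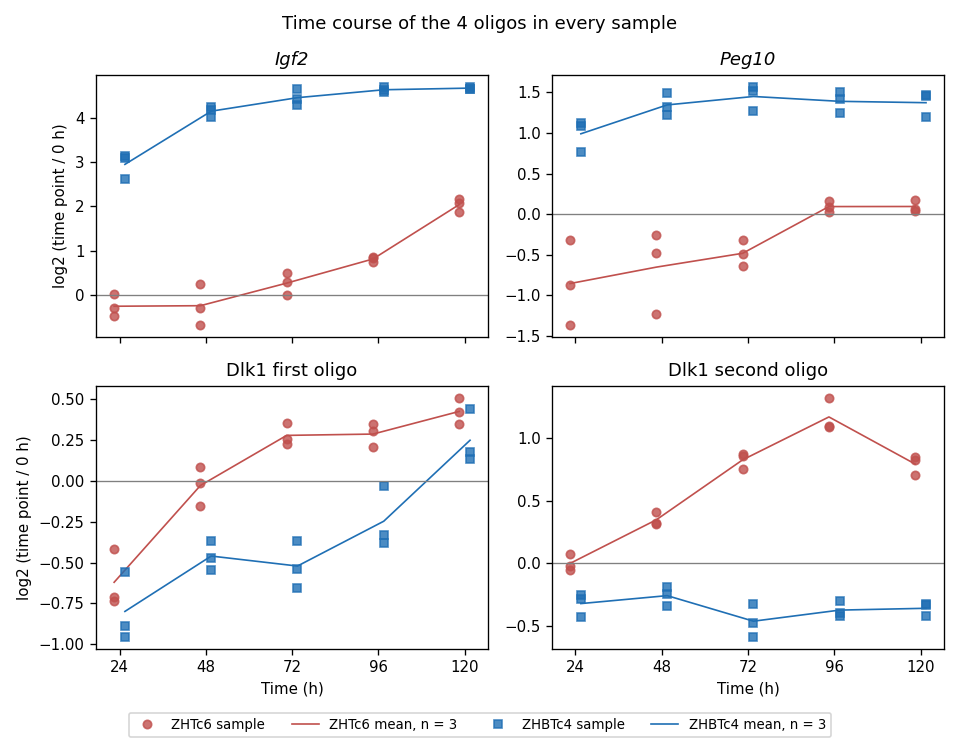
Log2 ratio to 0 h (y axis) against time in hours (x axis) for the 4 oligos. Red circles are the ZHTc6 samples, blue squares the ZHBTc4 samples and lines join the means of 3 samples; the points of the lines are set slightly apart, and the y axes differ. The ZHBTc4 samples of *Igf2* lie between 2.61 and 4.70, and those of *Peg10* between 0.76 and 1.57, all above the ZHTc6 samples at the same time.

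*Peg10* also rose in ZHBTc4 cells, but it was below its 0 h level in ZHTc6 cells during the first 3 days. In ZHBTc4 cells the samples stood at 0.76, 1.13 and 1.08 at 24 h, at 1.32, 1.23 and 1.49 at 48 h and at 1.51, 1.27 and 1.57 at 72 h. They stood at 1.42, 1.24 and 1.51 at 96 h and at 1.47, 1.20 and 1.45 at 120 h. All samples were above 0, and from 48 h on they kept to a narrow range. The mean rise was 1.99-fold at 24 h (0.99 ± 0.20, adjusted p = 0.0078), 2.73-fold at 72 h (1.45 ± 0.16, adjusted p = 5.25e-05) and 2.59-fold at 120 h (1.37 ± 0.15, adjusted p = 1.3e-05). The rise was thus smaller than that of *Igf2*, and at 24 h 98.6% of all oligos had a lower value than *Peg10*. The call at 24 h was lost with the time point in Cy3 only (0.90, adjusted p = 0.062) and without limma's moderation of the variance (adjusted p = 0.097).

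In ZHTc6 cells the *Peg10* samples were spread widely at first. They stood at -1.37, -0.88 and -0.32 at 24 h, at -0.47, -0.26 and -1.23 at 48 h and at -0.49, -0.64 and -0.32 at 72 h. They stood at 0.03, 0.16 and 0.09 at 96 h and at 0.17, 0.07 and 0.04 at 120 h, so that all samples were below 0 up to 72 h and just above it afterwards. The mean was 1.81-fold below 0 h at 24 h (-0.86 ± 0.53, adjusted p = 0.00389), 1.57-fold at 48 h (-0.65 ± 0.51, adjusted p = 0.0156) and 1.40-fold at 72 h (-0.48 ± 0.16, adjusted p = 0.0125). It did not pass the test at 96 h, with 0.09 ± 0.07 and an adjusted p of 0.33, nor at 120 h, with 0.09 ± 0.07 and an adjusted p of 0.43. With the time point in Cy5 only, the values at 48 h (-0.23, adjusted p = 0.18) and at 72 h (-0.11, adjusted p = 0.44) no longer passed, and the call at 48 h was also lost with arrays scaled alike (adjusted p = 0.070). At 72 h the call was also lost without ZHTc6 replicate 1 (-0.48, adjusted p = 0.081) or replicate 2 (-0.40, adjusted p = 0.085).

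The *Dlk1* oligos did not behave alike in ZHBTc4 cells. The second oligo stood below 0 in all samples there, between -0.58 and -0.19. Its values were -0.43, -0.25 and -0.28 at 24 h and -0.42, -0.33 and -0.33 at 120 h. It passed the test from 48 h on, with the lowest mean at 72 h (-0.46 ± 0.13, adjusted p = 0.00227), while 24 h missed it (-0.32 ± 0.09, adjusted p = 0.098). With the time point in Cy5 only, the value at 72 h was -0.39 (adjusted p = 0.056). The level was thus 1.38-fold below 0 h at 72 h and 1.28-fold below it at 120 h. The call at 48 h (-0.26 ± 0.08, adjusted p = 0.0317) was lost without each of ZHBTc4 replicates 1 (adjusted p = 0.067), 2 (adjusted p = 0.16) and 3 (adjusted p = 0.11) and without ZHTc6 replicate 3 (adjusted p = 0.057).

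The first *Dlk1* oligo also started below 0 in ZHBTc4 cells, but it ended above it. Its samples stood at -0.56, -0.88 and -0.95 at 24 h, at -0.37, -0.55 and -0.47 at 48 h and at -0.37, -0.65 and -0.54 at 72 h. They stood at -0.03, -0.38 and -0.33 at 96 h and at 0.44, 0.13 and 0.17 at 120 h. The mean was 1.74-fold below 0 h at 24 h (-0.80 ± 0.21, adjusted p = 0.0044) and 1.19-fold above it at 120 h (0.25 ± 0.16, adjusted p = 0.0402). With the time point in Cy5 only, the calls at 24 h (-0.52, adjusted p = 0.077), 48 h (-0.16, adjusted p = 0.32) and 96 h (-0.00, adjusted p = 0.99) were lost. With the time point in Cy3 only, the value at 120 h was 0.015 (adjusted p = 0.89). Thus at 120 h the oligos had opposite signs in all 3 samples, and the second was lower by 0.47 to 0.85. The late values of the first oligo are weak, since the calls at 96 h (-0.25 ± 0.19, adjusted p = 0.0439) and 120 h were lost in 5 of the 6 fits that each left out 1 sample, with adjusted p up to 0.16 and 0.15.

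In ZHTc6 cells both *Dlk1* oligos rose with time. The second oligo stood at -0.02, -0.05 and 0.08 at 24 h, at 0.41, 0.31 and 0.32 at 48 h and at 0.75, 0.87 and 0.86 at 72 h. It stood at 1.32, 1.10 and 1.09 at 96 h and at 0.85, 0.83 and 0.71 at 120 h, so that it peaked at 96 h. The peak was 2.25-fold above 0 h (1.17 ± 0.13, adjusted p = 0.000152), and the fall from 96 to 120 h was -0.38 (SE 0.09, adjusted p = 0.0111). The first oligo stood at -0.74, -0.71 and -0.42 at 24 h (-0.62 ± 0.18, adjusted p = 0.00361) and rose to 0.51, 0.42 and 0.35 at 120 h (0.42 ± 0.08, adjusted p = 0.00735). The second oligo was above the first in every ZHTc6 sample, by 0.33 at least and 0.98 at most. The rises of the first oligo at 72 h and at 96 h (adjusted p = 0.0394 and 0.0354) were lost without any 1 of the ZHTc6 replicates (adjusted p 0.13 to 0.20 and 0.096 to 0.16), the former also without ZHBTc4 replicate 3 (adjusted p = 0.060), and at 120 h the call was lost without replicate 1 (adjusted p = 0.059). With the time point in Cy3 only, all 3 calls were lost, with 0.21 (adjusted p = 0.099), 0.13 (adjusted p = 0.47) and 0.24 (adjusted p = 0.082).

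The dye of the time point moved some members. *Peg10* was higher with the time point in Cy5 than in Cy3 in all 30 pairs, on average by 0.60 in ZHTc6 and by 0.28 in ZHBTc4 cells. The first *Dlk1* oligo was so too, by 0.27 and 0.51. For *Igf2* the difference took both signs, with a mean size of 0.19 in ZHBTc4 cells and 0.45 in ZHTc6 cells, where it reached 1.36. The mean of a pair holds both orientations equally.

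**Figure D2:**
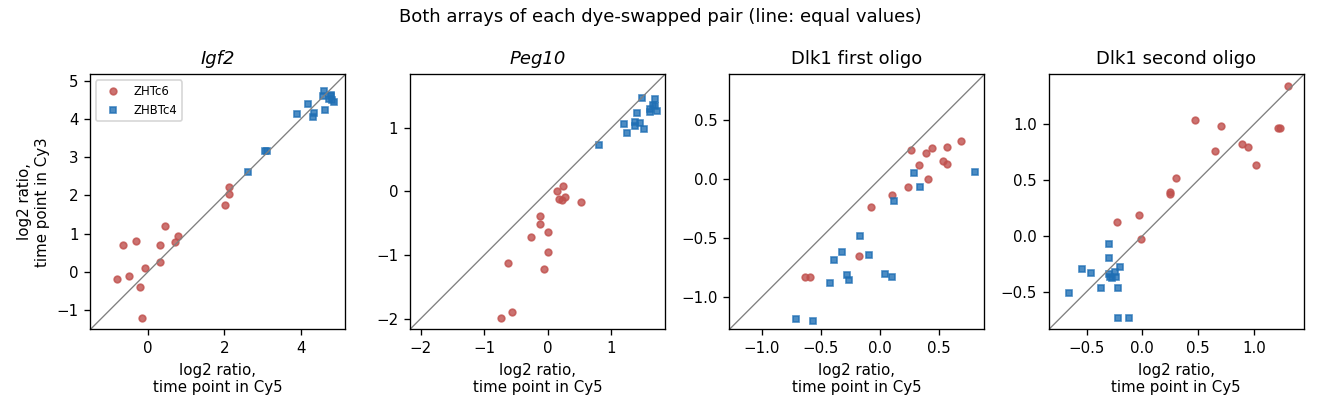
Log2 ratio to 0 h on the array with the time point in Cy5 (x axis) against the array with the time point in Cy3 (y axis), 1 point per pair. Red circles are ZHTc6 and blue squares ZHBTc4 samples, and the grey line marks equal values. All points of *Peg10* and of the first *Dlk1* oligo lie below the line.

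Of the 4 oligos, 2 rose, 1 fell and 1 did not pass the test at 24 h in ZHBTc4 cells, when 15.3% of 22148 oligos passed it (7.09% higher, 8.18% lower). There 2 rose and 2 fell at 48 h, when 26.9% of all oligos passed (13.5% higher, 13.4% lower), at 72 h, with 40.7% (20.3% and 20.4%), and at 96 h, with 47.1% (23.4% and 23.7%). At 120 h 3 rose and 1 fell, and 46.6% of all oligos passed (22.9% and 23.6%). In ZHTc6 cells 2 fell and 2 did not pass at 24 h, when 56.1% of all oligos passed (30.4% and 25.7%). At 48 h 1 rose and 1 fell, with 60.6% of all oligos (33.9% and 26.6%), and at 72 h 2 rose and 1 fell, with 20.2% (8.87% and 11.3%). At 96 h and at 120 h 3 rose and 1 did not pass, with 35.5% (19.2% and 16.3%) and 29.7% (16.1% and 13.6%). Over the 5 days, where the 5 time points of a sample are averaged, *Igf2* and *Peg10* rose in ZHBTc4 cells by 4.17 ± 0.09 (SE 0.08, adjusted p = 9.02e-08) and 1.31 ± 0.10 (SE 0.06, adjusted p = 1.81e-06). Both *Dlk1* oligos fell, the first by 0.36 (SD 0.16, adjusted p = 0.00304) and the second by 0.35 (SD 0.03, adjusted p = 0.000493). Of all oligos, 47.4% passed there (24.2% higher, 23.3% lower). In ZHTc6 cells, where 49.8% of all oligos passed (28.4% higher, 21.3% lower), *Igf2* (0.53 ± 0.20, adjusted p = 0.00191) and the second *Dlk1* oligo (0.63 ± 0.03, adjusted p = 8.35e-05) rose and *Peg10* fell by 0.36 (SD 0.06, adjusted p = 0.0023). The first *Dlk1* oligo stood at 0.07 ± 0.04 (adjusted p = 0.42), as its early values below 0 and late values above 0 enter the same mean.

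The time points differed from each other for *Igf2* in both lines by limma's F test, with F = 56.1 (adjusted p = 2.97e-10) in ZHTc6 and F = 31.4 (adjusted p = 9.44e-08) in ZHBTc4 cells. In ZHTc6 cells all 4 oligos passed this test, *Peg10* with the smallest F (8.80, adjusted p = 0.000411), and so did 65.2% of all oligos. In ZHBTc4 cells 28.9% of all oligos passed. There the first *Dlk1* oligo passed it (F = 21.3, adjusted p = 2.19e-06), and the second *Dlk1* oligo (F = 1.52, adjusted p = 0.42) and *Peg10* (F = 1.55, adjusted p = 0.41) did not. The means of the second *Dlk1* oligo there spanned 0.20 and those of *Peg10* 0.46, whereas those of *Igf2* spanned 1.72.

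The responses of the lines differed for all 3 genes over the 5 days. *Igf2* was 3.64 lower in ZHTc6 than in ZHBTc4 cells, as the difference ZHTc6 minus ZHBTc4 of the log2 ratios was -3.64 (SE 0.11, adjusted p = 3.33e-06). This difference was in place 7 of 22148 oligos by size. For *Peg10* it was -1.67 (SE 0.08, adjusted p = 9.97e-06). For *Dlk1* it had the other sign, with 0.98 (SE 0.07, adjusted p = 3.55e-05) for the second oligo and 0.42 (SE 0.09, adjusted p = 0.00946) for the first. Of all oligos, 41.9% differed between the lines.

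The size of the difference changed with time. That of *Igf2* was -3.20 at 24 h (SE 0.22, adjusted p = 0.000116), -4.39 at 48 h (SE 0.23, adjusted p = 6.71e-05) and -2.63 at 120 h (SE 0.10, adjusted p = 1.79e-05). *Igf2* in ZHTc6 cells at 120 h was still 6.18-fold behind ZHBTc4 cells, in ratios over their own 0 h. The size depended on scaling, since the difference at 120 h was -1.29 with all arrays scaled alike (SE 0.35, adjusted p = 0.034). That of *Peg10* was -1.85 at 24 h (SE 0.26, adjusted p = 0.00111) and -1.28 at 120 h (SE 0.11, adjusted p = 0.000227). The second *Dlk1* oligo differed by 0.32 at 24 h (95% interval -0.05 to 0.69, adjusted p = 0.14) and by 1.54 at 96 h (SE 0.09, adjusted p = 9.96e-05). The first *Dlk1* oligo did not pass at 24 h (0.18, 95% interval -0.25 to 0.60, adjusted p = 0.47) or at 120 h (0.18, -0.09 to 0.44, adjusted p = 0.31), and its largest difference was 0.80 at 72 h (SE 0.10, adjusted p = 0.00211). Of all oligos, 42.1%, 49.1%, 25.2%, 35.0% and 31.3% differed between the lines at the 5 time points in turn.

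**Figure D3:**
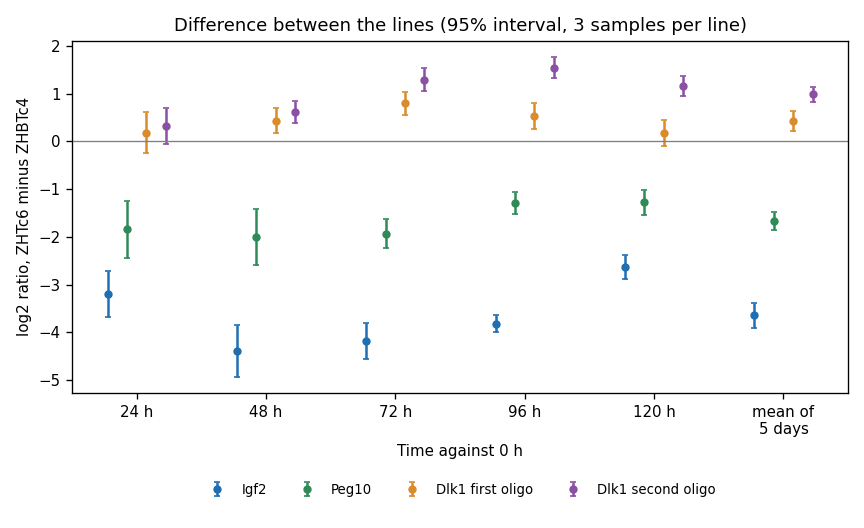
Difference of the log2 ratios over 0 h, ZHTc6 minus ZHBTc4 (y axis), at each time point and for the mean of the 5 days (x axis). Points are differences of the means of 3 samples per line and bars are 95% intervals of the limma fit. *Igf2* lies between -4.39 and -2.63 and *Peg10* between -2.0 and -1.28 at the time points, and both *Dlk1* oligos lie above 0.

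Ratios over 0 h do not give the starting level, which the reference arrays show as the log2 ratio of the sample over the reference RNA. The first *Igf2* oligo of these arrays stood at 0.13, 0.10 and 0.12 in ZHBTc4 and at 0.28, 0.17 and 0.38 in ZHTc6 cells at 0 h. The second stood at 0.68, 0.27 and 1.11 in ZHBTc4 and at 0.40, 0.56 and 0.74 in ZHTc6 cells. Both were thus near or somewhat above the level of the reference, and 3 ZHTc6 samples lay above all ZHBTc4 samples only for the first. Spot intensities were not examined, so the ratios on these arrays do not show how strongly *Igf2* or *Dlk1* was expressed at 0 h. *Dlk1* stood at -3.00, -2.44 and -1.61 in ZHBTc4 and at -2.18, -2.09 and -2.01 in ZHTc6 cells, which was 3.05-fold to 7.98-fold below the reference RNA. Of all oligos compared, 1.87% in ZHBTc4 and 2.64% in ZHTc6 cells had a lower mean than *Dlk1*.

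None of the 3 oligos differed between the lines at 0 h by limma, and 9.56% of 21140 oligos did. The difference ZHTc6 minus ZHBTc4 was 0.16 (95% interval -0.07 to 0.39, adjusted p = 0.30) and -0.12 (-0.70 to 0.45, adjusted p = 0.75) for the *Igf2* oligos, and 0.25 (-0.61 to 1.11, adjusted p = 0.65) for *Dlk1*. No unadjusted p was under 0.05, the lowest being 0.13. The intervals leave room for a difference of over 2-fold in *Dlk1*.

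The siRNA arrays hold 1 array per group, so that no test was made. *Tcl1*, the target, differed from siGFP by -1.73 at 560uM and by -2.20 at 1120uM. *Dlk1* stood at -1.95 with siGFP, -1.80 at 560uM and -1.46 at 1120uM, a difference from siGFP of 0.14 and 0.49. The first *Igf2* oligo stood at 0.08, 0.17 and 0.25, a difference of 0.09 and 0.17. The second stood at -1.96, -2.16 and -4.38, a difference of -0.20 and -2.42, so that it was 5.35-fold lower at 1120uM. Only this value passed 2-fold among the members, and it stood against the first oligo of the same gene. Of 21445 oligos, 4.71% at 560uM and 6.44% at 1120uM passed 2-fold. The siRNA arrays held 49 to 59 exact zeros and the 0 h arrays 376 to 798, so that these sets were not compared.

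**Figure D4:**
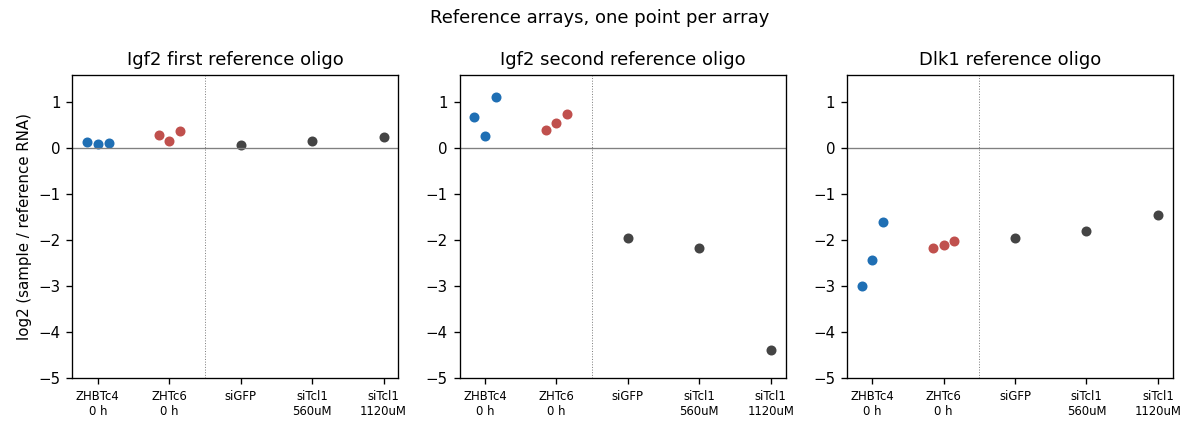
Log2 ratio of the sample over the reference RNA (y axis) on each reference array, by group (x axis), for the 3 oligos. Blue points are ZHBTc4 and red points ZHTc6 cells at 0 h, black points are EB5 cells, and a dotted line parts the sets that were not compared. *Dlk1* lies below 0 on all 9 arrays, and the second *Igf2* oligo is at -4.38 at 1120uM.

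Several other paternally expressed genes also rose in ZHBTc4 cells. In this list and those below, some oligos have their name only from the tables of the study, which favour genes that changed. Most of all oligos have no name, so the shares over all oligos are not a matched background for the lists. Of 26 listed genes, *Igf2*, *Dlk1* and *Peg10* included, 11 were named on the time course arrays, with 15 oligos. Over the 5 days 9 of these rose, 3 fell and 3 did not pass, with a median of 0.95 against 0.00 over all oligos, of which 24.2% rose and 23.3% fell. The oligos of *Igf2* and *Peg10* are 2 of the 9, and those of *Dlk1* are 2 of the 3 that fell. In ZHTc6 cells 6 rose, 4 fell and 5 did not pass, with a median of 0.07 against 0.06 over all oligos, of which 28.4% rose and 21.3% fell. Members with a mean of at least 1 on the log2 scale in ZHBTc4 cells besides *Igf2* and *Peg10* were *Peg3*, a zinc finger gene (2.78 and 2.10 for its oligos, adjusted p = 2.08e-07 and 1.09e-06), *Slc38a4*, an amino acid transporter gene (2.61, adjusted p = 1.34e-07, and 0.95, adjusted p = 5.1e-05, for its other oligo), *Sgce*, which encodes epsilon-sarcoglycan (1.69, adjusted p = 7.06e-07), and *Sfmbt2*, a Polycomb gene (1.55, adjusted p = 4.25e-06). *Zdbf2* fell by 1.27 (SD 0.36, adjusted p = 8.68e-05). In ZHTc6 cells the oligos of *Peg3* went from -1.80 and -1.30 at 24 h to 2.81 and 2.00 at 120 h. Of the 15 oligos, 2 rose and 9 fell there at 24 h (median -0.62 against 0.08 over all oligos, of which 30.4% rose and 25.7% fell). At 120 h 9 rose and none fell (median 0.42 against -0.02, with 16.1% and 13.6%). The oligos of *Igf2*, *Dlk1* and *Peg10* are 2 of those that fell at 24 h and 3 of those that rose at 120 h.

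Of 30 listed maternally expressed genes 15 were named, with 19 oligos. In ZHBTc4 cells 3 rose, 7 fell and 9 did not pass (median -0.16), where 24.2% of all oligos rose and 23.3% fell. In ZHTc6 cells 9 rose, 4 fell and 6 did not pass (median 0.22), where 28.4% of all oligos rose and 21.3% fell. *Osbpl5*, an oxysterol-binding protein gene, was the member with a mean of at least 1 in size, at 1.17 in ZHBTc4 cells (adjusted p = 4.11e-06).

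**Figure D5:**
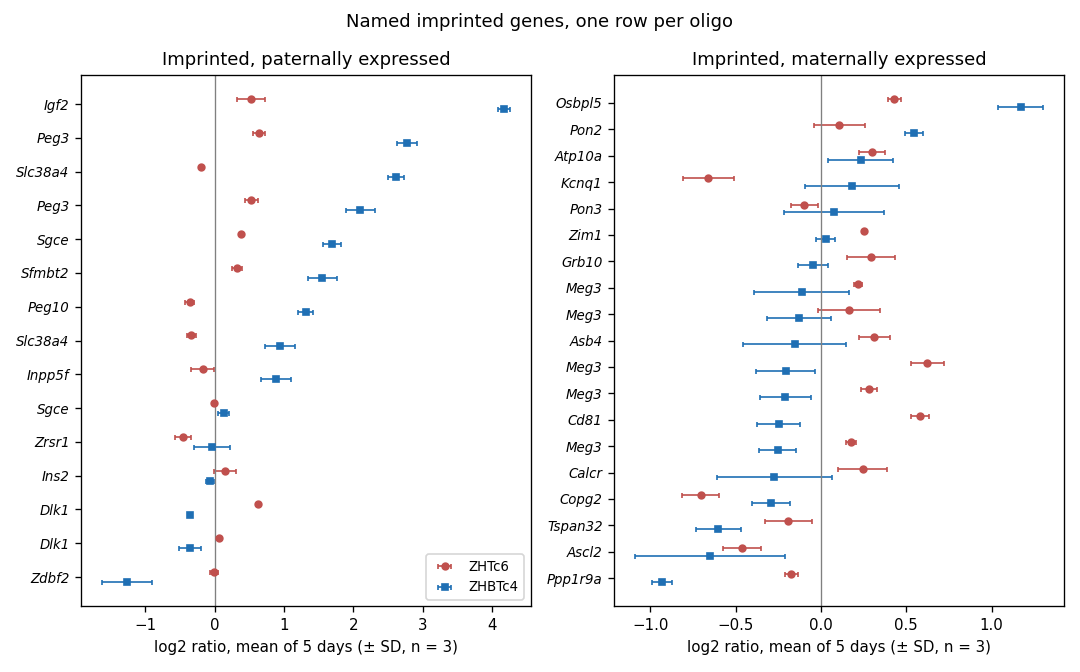
Mean log2 ratio over 0 h across the 5 days (x axis) for each named oligo of paternally (left) and maternally (right) expressed imprinted genes, ordered by ZHBTc4 cells. Red circles are ZHTc6 and blue squares ZHBTc4 cells, bars are the SD of 3 samples, and the x axes differ. *Igf2* is the highest on the left at 4.17 in ZHBTc4 cells, and *Osbpl5* on the right at 1.17.

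The neighbours of the members did not all follow them. *Sgce*, which is transcribed away from *Peg10*, had 2 oligos. One of them rose in ZHBTc4 cells from 0.96 at 24 h to 2.11 at 120 h, and in ZHTc6 cells it went from -0.19 to 1.18 (5 days 0.39, adjusted p = 0.00209). The other stood at 0.13 (adjusted p = 0.077) over the 5 days in ZHBTc4 and at -0.01 (adjusted p = 0.88) in ZHTc6 cells. Of the maternally expressed genes of that cluster, *Ppp1r9a* fell by 0.93 in ZHBTc4 cells (SD 0.06, adjusted p = 4.43e-06), and *Pon2* rose to 1.35 at 120 h (5 days 0.54, adjusted p = 0.000305). *Asb4* stood at -0.16 (adjusted p = 0.26) and *Pon3* at 0.08 (adjusted p = 0.57) over the 5 days there. *Ins2*, the neighbour of *Igf2*, stood at -0.07 (adjusted p = 0.41) in ZHBTc4 and at 0.15 (adjusted p = 0.092) in ZHTc6 cells. The 5 oligos of *Meg3*, the noncoding RNA gene beside *Dlk1*, stood between -0.25 and -0.11 in ZHBTc4 cells and between 0.16 and 0.62 in ZHTc6 cells. Of these, 2 fell and 3 did not pass in ZHBTc4 cells, and 3 rose and 2 did not pass in ZHTc6 cells. *H19*, *Th*, *Dio3* and *Rtl1*, further neighbours, were named for no oligo of the time course arrays. On the reference arrays the 0 h difference ZHTc6 minus ZHBTc4 was 0.48 (adjusted p = 0.0442) and 0.60 (adjusted p = 0.066) for the oligos of *H19*. For *Th* it was 0.46 (adjusted p = 0.59).

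In the Igf axis, 10 of 23 listed genes were named, with 14 oligos. *Igf2* is 1 of them. In ZHBTc4 cells 4 rose, 3 fell and 7 did not pass (median -0.06), and 24.2% of all oligos rose and 23.3% fell, so that these counts were near those shares. In ZHTc6 cells 5 rose, none fell and 9 did not pass (median 0.06), and 28.4% of all oligos rose and 21.3% fell. Besides *Igf2*, those that reached 1 were in ZHBTc4 cells *Igf2bp1*, an mRNA-binding protein gene (1.46, adjusted p = 1.84e-06, while its other 2 oligos stood at 0.14 and -0.15 and did not pass), the kinase gene *Akt1* (1.14, adjusted p = 2.74e-06) and *Igfbp4*, a gene for a binding protein of Igfs (1.06, adjusted p = 2.08e-06). *Igfbp2*, of the same family, fell by 0.96 over the 5 days (SD 0.02, adjusted p = 4.55e-06). It went from 0.67 at 24 h to -1.79 at 120 h. At 0 h on the reference arrays, 5 of 24 oligos of this list were higher in ZHTc6 than in ZHBTc4 cells and 1 was lower, while 9.56% of all oligos differed. Those higher were the 3 oligos of *Igf2bp1*, by 0.40 to 1.51 (adjusted p = 0.0086 to 0.049), *Igfbp3* (2.41, adjusted p = 0.0194) and *Igfbp4* (0.69, adjusted p = 0.0282). The insulin receptor gene *Insr* was lower (-0.81, adjusted p = 0.0141).

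*Dlk1* is related to the Notch ligands, and of this list 11 of 24 genes were named, with 14 oligos. Both *Dlk1* oligos are among them, and in ZHBTc4 cells they are 2 of those that fell and stand at the median of the list. In ZHBTc4 cells 10 oligos fell, 1 rose and 3 did not pass (median -0.36), where 23.3% of all oligos fell and 24.2% rose. In ZHTc6 cells 5 rose, 5 fell and 4 did not pass (median 0.01), where 28.4% of all oligos rose and 21.3% fell. In ZHBTc4 cells the receptor gene *Notch4* fell by 2.13 (SD 0.19, adjusted p = 1.85e-06). *Rbpj*, whose product binds DNA for Notch, fell by 1.38 with 1 of its oligos (SD 0.24, adjusted p = 1.05e-05), by 0.67 with another (SD 0.16, adjusted p = 0.000183), and stood at 0.07 with the last (adjusted p = 0.32). In ZHTc6 cells these oligos stood at -1.26 (adjusted p = 6.73e-05), -1.36 (adjusted p = 3.41e-05) and -0.39 (adjusted p = 0.00105), and all 3 fell. The ligand gene *Jag1* rose in both lines over the 5 days, by 0.44 in ZHBTc4 (adjusted p = 0.00234) and 0.35 in ZHTc6 cells (adjusted p = 0.00887). It stood below 0 at 24 h, at -0.63 and -0.61, and at 1.19 and 0.72 at 120 h.

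Marker genes of several cell types moved in the same samples. Of the listed genes, 12 of 22 were named for trophoblast, 7 of 17 for mesoderm and 13 of 21 for primitive and visceral endoderm. For fibroblasts and stroma 5 of 14 were named, and for pluripotency 15 of 18. Some genes, such as *Fn1* and *Krt18*, have several oligos in the counts. The pluripotency genes include *Pou5f1*, which was itself manipulated. Over the 5 days 24.2% of all oligos rose and 23.3% fell in ZHBTc4 cells, and 28.4% and 21.3% did in ZHTc6 cells, and at 120 h these shares were 22.9% and 23.6%, and 16.1% and 13.6%. Of 15 oligos of trophoblast genes, 12 rose and 2 fell in ZHBTc4 cells over the 5 days (median 1.58), and 9 rose and 3 fell in ZHTc6 cells (median 0.32). At 120 h 12 rose and 2 fell in ZHBTc4 cells (median 2.14), and 7 rose and 2 fell in ZHTc6 cells (median 0.09). Of 8 oligos of mesoderm genes, 7 rose and 1 fell in ZHTc6 cells at 120 h, when *Igf2* had its late rise (median 2.63), against 2 that rose and 2 that fell in ZHBTc4 cells (median -0.01). Of 14 oligos of primitive and visceral endoderm genes, 8 rose and 1 fell in ZHTc6 cells at 120 h (median 0.44), and 7 rose and 3 fell in ZHBTc4 cells (median 0.24). Of 7 oligos of fibroblasts and stroma, 6 rose and none fell in ZHTc6 cells at 120 h (median 1.5), and 1 rose and 3 fell in ZHBTc4 cells (median -0.46). Of 20 oligos of pluripotency genes 19 fell and none rose over the 5 days in ZHBTc4 cells (median -2.33), and 16 fell and 2 rose in ZHTc6 cells (median -0.55). At 120 h 19 fell and none rose in ZHBTc4 cells (median -2.66), and 15 fell and 1 rose in ZHTc6 cells (median -1.19). The part of these cell types in the values of *Igf2*, *Peg10* and *Dlk1* was not tested, and in such whole cultures more cells that express a gene and more RNA per cell cannot be told apart.

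The named genes whose means over the 10 combinations of line and time point were most like those of a member are given by Pearson's r, as a description. All points of a line share their 0 h RNA. For *Igf2* they were *Slc38a4* (r = 0.99), *Usp12* (0.99), *Tpi1* (0.98), *Rhou* (0.98) and *Peg10* (0.98), and for *Peg10* they were *Smc6* (0.99), *Id2* (0.99), *Nabp1* (0.99), *Klf7* (0.98) and *Igf2* (0.98). For the second *Dlk1* oligo they were *Rerg*, *Arfip2*, *Sulf1*, *Arl14ep* and *Srsf6*, with r from 0.97 to 0.99. For the first they were *Coro7*, *Arhgap44*, *Itm2b*, *Serf2* and *Dapk1*, with r from 0.93 to 0.96. The *Dlk1* oligos had an r of 0.71 with each other. Pearson's r compares the shape of the values and not their size. For the genes named with *Igf2*, the root mean square difference from it ran from 1.26 (*Slc38a4*) to 2.67 (*Usp12*) on the log2 scale.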

How the data were processed

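Per the files, the authors deposited log10 ratios of Cy5 to Cy3 for each spot, bounded at -2 and 2, made with Agilent Feature Extraction, whose background and dye settings are not given in the sources used here. The precision is limited by how many arrays there are. Values were turned to log2 and to time point over 0 h (60 arrays) or sample over reference (9 arrays), and dye-swapped pairs were averaged to 3 values per line and time point. Control rows (216) and rows that reached a bound on more than 0.5 of the arrays (211) were left out, so that 22148 oligos were tested. For 0 h and siTcl1, 306 rows and 1 row were at the bound. Of 22575 rows, 6734 had a name, from the annotation or the tables of the study.

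Time points were tested against 0 with limma 3.58.1 in R 4.3.3 (packages data.table, version 1.17.8, and statmod, version 1.5.0), with the lines in a common fit, p-values adjusted by Benjamini-Hochberg over all oligos and a threshold of 0.05. The mean of the 5 days, the line difference and 0 h were tested likewise. Change between time points was tested by limma's F test over all 30 values, and neighbouring time points by contrasts in that fit, which were added after the data were seen. The code was tested on simulated data. By the study's methods the samples are independent. Samples of a number share their 0 h RNA by the labels, and their deviations correlated between time points with a median of 0.35 in ZHBTc4 (0.10 to 0.52) and 0.14 in ZHTc6 cells (-0.22 to 0.39). The ZHTc6 120 h pair labelled 2 beside 0 h number 1 was taken as number 1. The text names every member, the neighbours in the clusters, members of the imprinted, Igf and Notch lists with an adjusted p under 0.05 and a size of at least 1 over the 5 days, and the 5 named genes most like each member. *Igfbp2*, *Jag1* and the 0 h values of the Igf axis, *H19* and *Th* were chosen after their values were seen. The members and lists were chosen with earlier results of these data known. Alternatives were other centring and scaling, each dye alone, a replicate block, each line alone, an unmoderated test, no row left out, the 120 h pair as labelled, and each sample left out in turn.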

Additional observations from a re-analysis of the deposited data

Results flagged for a closer look

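The response over the 5 days differed between the lines for each of the 4 oligos, by limma's contrast of ZHTc6 minus ZHBTc4. It was -3.64 for *Igf2* (adjusted p = 3.33e-06), -1.67 for *Peg10* (adjusted p = 9.97e-06), 0.98 for the second *Dlk1* oligo (adjusted p = 3.55e-05) and 0.42 for the first *Dlk1* oligo (adjusted p = 0.00946). Such a difference was called for 41.9% of all oligos.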

How the results depend on the processing

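Over the 5 days, the line difference and the change between time points, the calls of *Igf2* and of the second *Dlk1* oligo kept their direction and their side of the threshold under every alternative run. With the time point in Cy5 only, the fall of *Peg10* in ZHTc6 cells (-0.063, adjusted p = 0.44), that of the first *Dlk1* oligo in ZHBTc4 cells (-0.10, adjusted p = 0.37) and its difference between the lines (0.31, adjusted p = 0.095) were lost. No called value changed its sign. Centring and scaling moved the paternally expressed oligos that fell in ZHTc6 cells from 4 to 2, and the mesoderm oligos that fell there from 0 to 1. Leaving out 1 sample at a time changed none of these calls. *Igf2* over the 5 days then ranged from 4.12 to 4.20 in ZHBTc4 and from 0.41 to 0.60 in ZHTc6 cells, and *Peg10* from 1.25 to 1.36 and from -0.39 to -0.33. With the 0 h number as a replicate block (block correlation 0.21), in a fit over all time points, these calls were kept. The second *Dlk1* oligo at 24 h then passed the threshold in ZHBTc4 cells (-0.32, adjusted p = 0.00033) and between the lines (0.32, adjusted p = 0.0038), and it passed without the block too. The block also brought 4 neighbouring steps past the threshold, among them 72 to 96 h of *Igf2* in ZHTc6 cells (adjusted p = 0.016). At 0 h the number as a block changed no call. The precision is limited by the number of arrays.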

Other observations

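A further oligo that the annotation pairs with both *Ctsd* and *Igf2*, and that the tables of the study do not name, was not counted among the members. In ZHBTc4 cells its log2 ratio to 0 h was 0.56 ± 0.11 (SD, n = 3) at 24 h and 1.35 ± 0.22 at 120 h, and 1.06 ± 0.04 over the 5 days (adjusted p = 5.63e-06). In ZHTc6 cells it stood at 0.18 ± 0.12 over the 5 days (adjusted p = 0.0388). Among the time points there, only 48 h passed limma's test (0.39 ± 0.18, adjusted p = 0.0162). It did not share the late rise of the *Igf2* oligo, which stood at 0.82 at 96 h and 2.04 at 120 h. At these times the further oligo stood at -0.07 ± 0.04 (adjusted p = 0.47) and 0.10 ± 0.003 (adjusted p = 0.45).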
